A study of Mus musculus with 36 samples.

Results

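The 4 ATAC-seq libraries of multipotent progenitor 3 (MPP3) cells were compared between young mice of 10 weeks and aged mice of 20 months, 2 libraries per age, out of 36 libraries of 8 bone marrow fractions. ATAC-seq marks open chromatin by where a transposase can cut. The libraries were chosen by their labels alone. MPP3 cells were sorted from C57BL/6 marrow as negative for lineage markers, the IL-7 receptor (labelled IL-7), CD150 and Flt3 and positive for Sca-1, c-kit, CD34 and CD48, with 20000 cells per library. The groups differ in age, and the labels give no other allele or agent for either. The study describes female mice whose marrow was pooled per age and sorted in duplicate, and it calls the ATAC-seq libraries biological duplicates where it compares HSCs. The labels do not name separate mice, so p-values measure the spread between these libraries, which may be technical. The MPP3 peaks merged into 44582 regions, against 105005 for all 36 libraries, and a library counted as calling a region when 1 of its peaks overlapped it by at least 1 bp.

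MPP3 is the myeloid-biased subset of the multipotent progenitors that lie between the stem cell and the lineage-restricted progenitors, and it feeds mainly the granulocyte-macrophage progenitors (GMPs). Chromatin of such cells is open at promoters used by most cells and at enhancers bound by factors such as PU.1, RUNX1 and C/EBP, the last of which also opens granule genes as the cells become GMPs. A peak that is missing from one library and present in another says that it passed the caller's limit in the second, not that the site was closed in the first.

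Fewer peaks were called in the aged libraries, but the aged libraries also differed from each other. Young replicates 1 and 2 held 34432 and 34380 peaks, and aged replicates 1 and 2 held 27087 and 32284. Both aged libraries lay under both young ones, and aged replicate 1 lay further under aged replicate 2 than the latter lay under the young libraries. The means were 34406 ± 36.8 peaks (SD, n = 2) in young and 29686 ± 3675 (SD, n = 2) in aged MPP3 cells, a difference of -4720.5 peaks or -13.7% (two-sided exact permutation p = 0.333, the smallest that 2 against 2 libraries allow). The authors subsampled reads to an equal number, and the background recovered from weak peaks was 0.00481 expected reads per bp of the smallest peak width in each of the 4 libraries. Without aged replicate 1 the difference was -2122 peaks, and without aged replicate 2 it was -7319. Among peaks with a -log10 q of at least 10, the numbers were 22943 and 24368 in young and 18576 and 22030 in aged libraries.

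The lower number lay mostly outside promoters. Promoter peaks, reaching from 1000 bp before a transcription start site (TSS) to 100 bp after it, numbered 10096 and 10290 in young and 9496 and 10104 in aged libraries, so these groups overlapped. Intron peaks averaged 11156 ± 30.4 (SD, n = 2) in young and 9210.0 ± 1556 (SD, n = 2) in aged libraries, and intergenic peaks averaged 10859 ± 28.3 and 8798 ± 1532. Promoters therefore made up 29.3% and 29.9% of young peaks and 35.1% and 31.3% of aged peaks. The median fold enrichment of a peak, its read pileup over the local background, was 8.25 and 8.67 in young and 8.28 and 8.56 in aged libraries, which overlap.

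**Figure D1:**
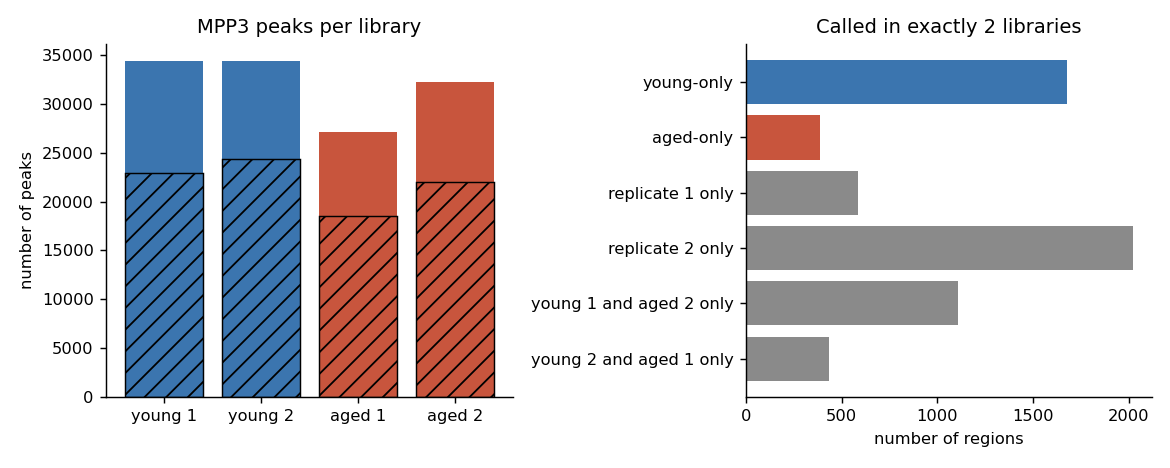
Left, peaks in each MPP3 library (bars, number of peaks; hatched parts, peaks with a -log10 q of at least 10); right, regions called in exactly 2 of the 4 libraries (bars, number of regions) by which pair held them. Young-only regions (1677) exceed aged-only regions (388), and the pair of replicate 2 libraries, 1 of each age, shares more regions (2022) than the pair of young libraries.

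Of the 44582 regions, 21597 (48.4%) were called in all 4 libraries, 11497 in 1 library alone, 6209 in exactly 2 and 5279 in exactly 3. Regions called in both young and neither aged library (young-only) numbered 1677, or 3.76% of all regions, and regions called in both aged and neither young library (aged-only) numbered 388, or 0.870%. The same count for libraries that share a replicate number and not an age gave 583 regions in the replicate 1 libraries and 2022 in the replicate 2 libraries. The remaining pairing gave 1108 regions for young replicate 1 with aged replicate 2 and 431 for young replicate 2 with aged replicate 1. Summed over both sides, age separated 2065 regions, replicate number 2605 and the crossed pairing 1539, so the age count lay between the counts of the pairings that mix the ages. The excess of young-only over aged-only regions also moved with the number of peaks: with 27087 peaks kept in every library, the counts were 775 and 763. With aged replicate 1 left out, so that 1 aged library stood for its age, 2611 young-only and 2745 aged-only regions were counted, against 4310 and 1290 without aged replicate 2, 5368 and 1034 without young replicate 1 and 6398 and 1487 without young replicate 2.

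Aged-only and young-only regions were mostly weak peaks away from promoters. The median over regions of the lowest -log10 q was 6.77 in young-only and 6.08 in aged-only regions, against 14.8 in regions called in all 4 libraries, and 233 of 1677 young-only and 30 of 388 aged-only regions reached a -log10 q of 10 in both of their libraries. Promoters made up 10.3% of young-only and 8.76% of aged-only regions and 38.9% of regions called in all 4 libraries. Introns held 51.5% of aged-only and 40.3% of young-only regions. Control regions, called in exactly 1 library of each age, had 11.3% promoters, 42.3% introns and a median lowest -log10 q of 6.85, nearer to the young-only than to the aged-only values in introns and -log10 q. The median distance to a TSS was 16.3 kb in aged-only, 21.5 kb in young-only and 18.5 kb in control regions.

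A set of 16 consensus motifs was searched in both orientations in a window of 201 bp centred on each region's median summit, and the shares are a description without a test. The AP-1 letters TGANTCA, bound by FOS and JUN proteins, lay in 15% of young-only and 10.4% of aged-only windows, with 12.6% of control windows and 12.2% of all windows, and in 14.1% of windows of regions held by the replicate 2 libraries alone against 8.61% for the replicate 1 libraries. The GATA letters AGATAA lay in 12.4% of aged-only, 9.37% of young-only and 9.11% of all windows, and in 10.2% and 9.35% for the replicate 1 and replicate 2 libraries. The C/EBP letters TTNNGCAA lay in 10.4% of aged-only and 8.30% of young-only windows, with 14% of control and 9.19% of all windows. They lay in 20.1% of windows held by the replicate 2 libraries alone and in 8.43% of those held by the replicate 1 libraries. PU.1 letters (GAGGAAGT) lay in 8.29% of aged-only and 7.64% of young-only windows, with 7.47% of all windows, and in 9.50% and 5.85% for the replicate 2 and replicate 1 libraries. For C/EBP, AP-1 and PU.1, the gap between replicate numbers was thus wider than the gap between ages, and for GATA, as for CRE, CNC, HOX, MEIS, E2A, NF-kB and KLF/SP, it was narrower.

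The 8 aged-only regions with the highest lower percentile of fold enrichment within their libraries are described first. The region in an intron of Acadm, which encodes a fatty acid oxidation enzyme, had fold enrichments of 13.2 and 11.7 in aged replicates 1 and 2 and no peak in either young library (chr3:153929573-153929900, mm10, 14.9 kb from the TSS). In the other fractions it was called in 14 of 16 aged and 3 of 16 young libraries, and in HSCs in 4 of 4 aged and 0 of 4 young libraries. The region 11.7 kb from Bgn, a matrix proteoglycan gene, had 12.6 and 10.3 (chrX:73471751-73472069) and was called in 9 of 16 aged and 5 of 16 young libraries elsewhere. The intergenic region nearest to Cntnap4 on chromosome 8, 514 kb away, had 9.39 and 8.15 and was called in 13 of 16 aged and 3 of 16 young libraries. These 3 regions were the members of the 8 that differed by at least 4 libraries between ages elsewhere.

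The region within the promoter window of Aim2, a sensor of cytosolic DNA, also lies inside Cadm3 and had 8.45 and 10.2 (chr1:173349888-173350173), with calls in 9 of 16 aged and 7 of 16 young libraries. The intron region of Arhgef28, a guanine nucleotide exchange factor gene, had 9.14 and 10.6 (chr13:98008676-98009006) and was called in 4 aged and 2 young libraries. The region nearest to Rmi1, which encodes a partner of the BLM helicase, had 9.63 and 9.67 and was called in 11 aged and 13 young libraries, the reverse order. The regions nearest to Muc3 and Dmc1 had 9.54 and 9.09 and, for Dmc1, 9.22 and 8.56, with calls in 8 aged and 7 young libraries for Muc3 and in 4 aged and 1 young library for Dmc1. The weakest of the 8 thus sat near the middle of its library, at a lower percentile of 45.9, and the strongest at 73.2.

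The windows of 201 bp around the median summit of 5 of these age-only regions are printed to show the sequence behind these calls, from the RefSeq copy of GRCm38 (mm10), plus strand, 5′ to 3′. Capitals mark matches to any of the 16 motifs. The Acadm window, chr3:153929606-153929806, and the young-only Snx14 window, chr9:88404181-88404381, both hold the CRE letters TGACGTCA, which lay in 1.12% of all windows, and the Acadm window also holds a KLF/SP and an E2A match. The Arhgef28 window, chr13:98008752-98008952, holds a GATA and an AP-1 match. The young-only windows near Ndufb6, chr4:40287547-40287747, and Asb13, chr13:3700817-3701017, hold PU.1 matches, with a MEIS match beside it for Ndufb6 and an AP-1 match for Asb13.
Acadm, aged-only: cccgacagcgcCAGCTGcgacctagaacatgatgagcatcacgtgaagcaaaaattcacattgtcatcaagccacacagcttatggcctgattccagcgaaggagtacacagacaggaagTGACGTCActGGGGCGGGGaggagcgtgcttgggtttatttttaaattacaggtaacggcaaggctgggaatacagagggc
Arhgef28, aged-only: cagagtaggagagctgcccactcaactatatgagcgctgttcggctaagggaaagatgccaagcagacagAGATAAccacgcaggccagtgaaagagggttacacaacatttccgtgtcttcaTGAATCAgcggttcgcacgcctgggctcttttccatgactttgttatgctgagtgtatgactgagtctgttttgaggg
Ndufb6, young-only: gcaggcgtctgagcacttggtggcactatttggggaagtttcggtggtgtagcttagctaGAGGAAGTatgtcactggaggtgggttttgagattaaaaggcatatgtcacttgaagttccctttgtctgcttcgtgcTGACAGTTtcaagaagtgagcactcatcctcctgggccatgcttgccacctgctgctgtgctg
Asb13, young-only: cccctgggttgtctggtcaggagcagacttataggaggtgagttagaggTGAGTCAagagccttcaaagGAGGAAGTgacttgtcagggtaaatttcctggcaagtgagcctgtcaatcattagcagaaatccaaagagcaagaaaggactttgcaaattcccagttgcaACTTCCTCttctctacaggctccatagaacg
Snx14, young-only: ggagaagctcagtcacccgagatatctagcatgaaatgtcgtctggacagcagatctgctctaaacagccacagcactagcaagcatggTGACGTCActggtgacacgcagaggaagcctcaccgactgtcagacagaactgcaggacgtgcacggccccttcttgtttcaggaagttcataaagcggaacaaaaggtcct

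Of the 8 young-only regions chosen by the same rule, the region 8.21 kb from Ndufb6, a respiratory complex I gene, had fold enrichments of 11.2 and 12.3 in young replicates 1 and 2 (chr4:40287469-40287785). Other fractions called it in 12 of 16 young against 13 of 16 aged libraries, about as often at both ages. The intron region of Snx14, a sorting nexin gene, had 13.2 and 11.6 (chr9:88404065-88404442) with calls in 9 young and 7 aged libraries. The region 66.9 kb from Asb13 had 15.5 and 10.9 (chr13:3700745-3701076) with calls in 10 young and 8 aged libraries, none of them a GMP, MEP or CLP library. The intron region of Sorl1, a sorting receptor gene, had 10.1 and 10.7 (chr9:42039006-42039281), likewise with 10 and 8. The regions nearest to Galr1 and Mylk4 had 11.1 and 14.3 and, for Mylk4, 10.6 and 13.1, with calls in 9 young and 7 aged libraries for Galr1 and in 8 of each age for Mylk4. These 6 regions differed by at most 2 libraries between ages in the other fractions.

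The other two young-only regions of the 8 lie on the sex chromosomes and differed with age in most fractions. The intron region of Mid1, a ubiquitin ligase gene, had 14 and 11.6 in the young MPP3 libraries (chrX:169991097-169991618), with calls elsewhere in 11 of 16 young against 2 of 16 aged libraries. The region nearest to Gm21860 had 12.8 and 12.4 (chrY:90765285-90765916), with calls in 11 of 16 young against 1 of 16 aged libraries. The windows of the pair, chrX:169991228-169991428 and chrY:90765495-90765695, share an identical stretch of 194 of 201 bp and are shown for that reason, so reads from the copies cannot be told apart and the pair is not 2 independent findings. The mice are described as female, so a call on chromosome Y says only where reads were placed.
Gm21860, young-only: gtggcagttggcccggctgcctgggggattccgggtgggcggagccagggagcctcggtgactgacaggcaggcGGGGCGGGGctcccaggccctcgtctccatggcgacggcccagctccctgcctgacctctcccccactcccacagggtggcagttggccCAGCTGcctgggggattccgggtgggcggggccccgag
Mid1, young-only: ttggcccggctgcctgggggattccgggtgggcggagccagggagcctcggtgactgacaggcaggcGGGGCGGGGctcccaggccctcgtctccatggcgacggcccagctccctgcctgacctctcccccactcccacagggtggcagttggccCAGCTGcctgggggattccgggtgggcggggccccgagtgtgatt

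Young-only regions also lay next to each other at these places. By a rule set after the values were seen, runs of at least 3 regions of one kind with gaps of at most 20 kb were counted. There were 5 runs with 23 of the 1677 young-only regions and none among aged-only regions, against 11 runs with 34 of the 2022 regions of the replicate 2 libraries. The young-only run with the most regions held 7, nearest to Pls3, an actin-bundling protein gene (chrX:75729765-75758172, 28.4 kb), with fold enrichments of 3.57 to 7.08. In the other fractions its 7 regions were called 70 times of 112 in young and 14 times of 112 in aged libraries, in HSCs 23 of 28 against 6 of 28 and in MPP1 cells 13 of 14 against 2 of 14. The run at Mid1 (chrX:169991097-170009463) was called 44 of 64 times in young and 10 of 64 in aged libraries, and the run from Gm21860 on chromosome Y 44 of 80 against 10 of 80. The Mid1 and Gm21860 runs each begin with a region of the near-identical pair above, so their counts and contrasts are not independent. The runs near Ntn1 and Khdrbs1, on autosomes, gave 19 of 48 against 13 of 48 and 18 of 64 against 16 of 64. On autosomes alone, 1606 young-only and 381 aged-only regions remained.

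Among the 21597 regions called in all 4 libraries, no difference in fold enrichment by age passed the test. Limma on quantile-normalized log2 fold enrichments called 0 regions at an adjusted p under 0.05 (smallest adjusted p = 1.00), with 859 regions (3.98%) at an unadjusted p under 0.05, 396 higher and 463 lower at 20 months. The log2 differences ran from -1.41 to 0.97 with a median size of 0.15 and a median SE of 0.222. By rank within the library, both aged libraries lay above both young ones at 3405 regions (15.8%) and below both at 3290 (15.2%), which makes 6695 regions. The replicate 2 libraries lay apart from the replicate 1 libraries at 8266 regions, and the crossed pairing separated 6611. The median rank difference between ages was 7.58 percentile points, with 8.50 between replicate numbers and 7.57 in the crossed pairing. Spearman's correlation across the shared regions, which are not independent, was highest for young replicate 2 with aged replicate 2 (0.834), 0.753 within the young pair and 0.784 within the aged pair.

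**Figure D2:**
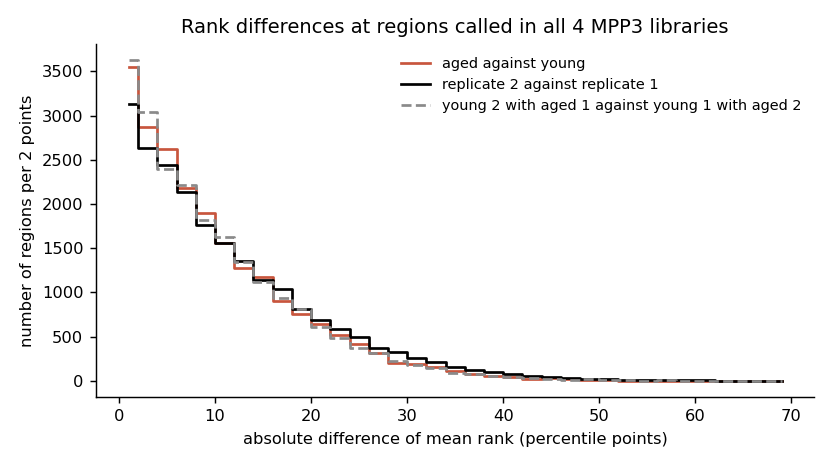
Number of shared regions (y axis, per 2 points) by the absolute difference in mean rank of fold enrichment (x axis, percentile points) for the 3 ways of pairing the 4 MPP3 libraries. The line of aged against young (median 7.58 points) lies on that of the crossed pairing (7.57), and the line of the replicate numbers (8.50) reaches furthest to the right.

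The 5 shared regions with the smallest limma p in each direction are given as a description, since none passed the adjusted threshold. The region in an intron of Klf13 (chr7:63911965-63912407, nearest TSS E030018B13Rik) had fold enrichments of 4.43 and 4.67 in young and 8.60 and 8.35 in aged libraries, a log2 difference of 0.97 (SE 0.21). The intron region of Iqgap2 nearest to F2r, the thrombin receptor gene, had 7.19 and 9.37 in young and 12.8 and 15.7 in aged libraries (0.92, SE 0.21). The intron region of Prkcb, a protein kinase C gene, had 5.31 and 5.99 against 8.51 and 11.7 (0.91, SE 0.21). The regions nearest to Fam181a and N6amt1 had log2 differences of 0.92 and 0.94. In each of the 5 both aged values exceeded both young ones, as the choice by p favours.

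In the other direction, the promoter region of Plagl1, a zinc finger gene, had 10.9 and 9.97 in young and 4.49 and 5.41 in aged libraries (-1.01, SE 0.21). The promoter region of Uhrf1bp1l had 8.04 and 9.13 against 4.28 and 3.94 (-1.0, SE 0.21). The region 119 kb from Cxcl12, the chemokine that holds stem cells in the marrow, had 20.2 and 13.6 against 6.86 and 4.81, the widest log2 difference of the 10 (-1.41, SE 0.30). The region nearest to Thbs2 (chr17:14545788-14546258) had 11.7 and 14.3 against 5.28 and 6.42 (-1.05, SE 0.21), and the region nearest to Tfcp2l1 had 14.1 and 14.7 against 5.23 and 7.52 (-1.11, SE 0.23). The Thbs2, Tfcp2l1 and Uhrf1bp1l regions were called in 13 of 16, 11 of 16 and 16 of 16 young and in 13, 10 and 15 aged libraries of the other fractions. Plagl1 had calls in 13 young and 8 aged libraries.

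The sorted identity was checked at the TSS of its marker genes. Kit, the c-kit gene, had a region in all 4 libraries with fold enrichments of 7.52 and 7.80 in young and 7.48 and 7.09 in aged cells. Cd34 had 7.10 and 7.52 in young and 5.13 and 5.59 in aged cells, groups that do not overlap, with a limma log2 difference of -0.38 (SE 0.20, unadjusted p = 0.0903, adjusted p = 1.00). Ly6a, which encodes Sca-1, was called in young replicate 2 alone (5.28), and Cd48 in young replicate 2 (6.67) and aged replicate 1 (4.62). Flt3, whose protein the gate excludes, was open at its TSS in all 4 libraries, between 14.7 and 16.8. Slamf1, the CD150 gene, and Il7r had no region there.

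Of the listed genes of other lineages, 7 of 14 megakaryocyte and erythroid genes and 8 of 16 lymphoid genes had a TSS region. The share of all annotated genes with a TSS region was not taken. The counts of listed genes with a region, here and below, therefore have no background. Gata1, Klf1 and Epor of the erythroid lineage and Dntt, Rag1 and Pax5 of the lymphoid lineage had no region at their TSS in any of the 4 libraries. Pf4, a megakaryocyte chemokine gene, had one in all 4, between 11.1 and 13.8, and Ebf1 in the libraries other than young replicate 1. Itga2b, Gfi1b, Zfpm1, Tfrc and Car2 of the megakaryocyte and erythroid list also had a TSS region in all 4 libraries. So did Ikzf1, Notch1, Satb1, Tcf3, Lef1 and Gata3 of the lymphoid list. The myeloid markers Elane, Cebpe and Csf1r had none in the window, whereas Cebpa, which encodes a factor that drives the granulocyte-macrophage fate, had 11.0 and 12.9 in young and 8.58 and 12.8 in aged libraries.

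**Figure D3:**
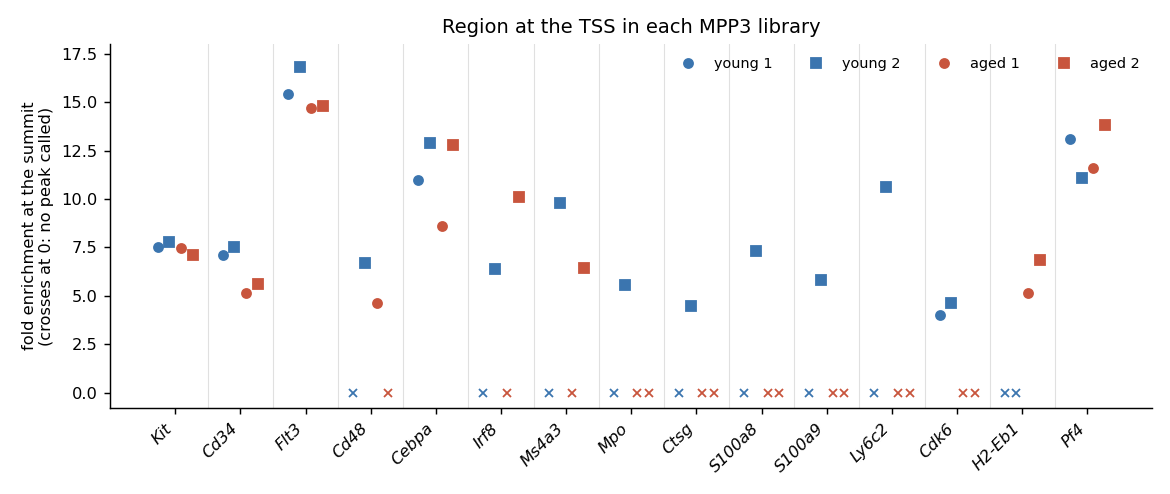
Fold enrichment (y axis) of the region at the TSS of 15 genes (x axis) in each MPP3 library; circles, replicate 1; squares, replicate 2; crosses at 0, no peak called. Kit and Flt3 are alike in all 4 libraries, Mpo, Ctsg, S100a8, S100a9 and Ly6c2 are called in young replicate 2 alone, and Cdk6 and H2-Eb1 separate by age.

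Of 22 myeloid genes, 16 had a region at the TSS. Of these, 8 were called in all 4 libraries, beside 8411 of 10952 promoter regions. None of the other 8 separated by age. Mpo and Ctsg, which encode granule proteins, were called in young replicate 2 alone with 5.57 and 4.46, and S100a8, S100a9 and Ly6c2 in that library alone with 7.29, 5.80 and 10.6. Irf8, a macrophage fate factor gene, was called in young replicate 2 (6.37) and aged replicate 2 (10.1), and Ms4a3, a GMP marker, in the same pair (9.79 and 6.42). Gfi1 was called in young replicate 1 (5.48) and aged replicate 2 (3.96). Thus 7 of the 8 were seen in replicate 2 libraries alone and 0 in replicate 1 libraries alone, beside 28.9% and 22.7% of the 2541 promoter regions not called in all 4 libraries. Young replicates 1 and 2 held 9 and 15 of the 16 TSS regions, and aged replicates 1 and 2 held 8 and 11. Over the 90 regions nearest to these genes, 5 (5.56%) were young-only, near Cebpb, Cebpe, Csf1r, Gfi1 and Klf4, and 0 aged-only, beside 3.76% and 0.870% of all regions.

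Age separated the TSS calls of Cdk6 and H2-Eb1 among the listed genes described here. Cdk6, a cell cycle kinase gene, was young-only with 4.00 and 4.63, near the bottom of each library, with calls elsewhere in 11 of 16 young against 10 of 16 aged libraries. H2-Eb1, an MHC class II gene, was aged-only with 5.17 and 6.83 (chr17:34305668-34305895), and was called in 12 of 16 aged and 5 of 16 young libraries elsewhere, in HSCs in 3 of 4 and 0 of 4. Of the other antigen presentation genes, H2-Aa had 6.37 and 6.09 in young and 6.67 and 10.8 in aged libraries (log2 difference 0.53, SE 0.24), and Cd74 had 5.52 and 6.43 against 6.98 and 8.23 (0.43, SE 0.21), both with a limma adjusted p = 1.00. H2-Ab1, B2m and H2-K1 had log2 differences of 0.08, 0.02 and -0.11, and all 8 shared TSS regions of the list had a median of 0.05, beside 0.00 for all shared regions.

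The stem cell list had 15 of 18 genes with a TSS region. Of these, 9 were called in all 4 libraries (median log2 difference 0.07), beside 8411 of 10952 promoter regions. Procr and Hoxa9 were called in the replicate 2 libraries of both ages, Mecom in the replicate 1 libraries, Lmo2 in all but young replicate 1 and Fli1 in young replicate 2 alone. Of the 155 regions nearest to its genes, 5 (3.23%) were young-only, among them regions near Meis1, Mycn and Runx1, and 1 (0.645%) was aged-only, near Prdm16. Both shares lay close to the background. The lymphoid list had 4 young-only regions of 77 (5.19%), near Bcl11a, Gata3, Ikzf1 and Lef1, and 0 aged-only, beside 3.76% and 0.870% of all regions. The 6 TSS regions called in all 4 libraries had log2 differences from -0.20 to 0.45, the last at Notch1.

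The stress-responsive transcription factor list holds FOS, JUN, ATF and BACH genes among others. Beside 8411 of 10952 promoter regions, all 14 of its TSS regions were called in all 4 libraries. Their median log2 difference was 0.05, with 0.41 (SE 0.20) at Jun, 0.33 (SE 0.22) at Egr1 and 0.28 (SE 0.24) at Fos, and with -0.34 (SE 0.31) at Maff and -0.13 (SE 0.21) at Fosb, none past the threshold. Jun had 7.93 and 8.64 in young and 9.72 and 10.4 in aged libraries, which do not overlap. Of the 115 regions nearest to these genes, 7 (6.09%) were young-only, 3 of them near Bach1 and the others near Atf3, Bach2, Fos and Jun, and 0 aged-only, beside 3.76% and 0.870% of all regions.

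The inflammatory signalling list had a TSS region for all 21 genes. Of these, 17 were called in all 4 libraries (median log2 difference 0.04), beside 8411 of 10952 promoter regions. Tlr2, a receptor for bacterial lipoproteins, had 10.6 and 9.75 in young and 6.10 and 6.84 in aged libraries (-0.56, SE 0.21, limma adjusted p = 1.00). Tlr9, a DNA receptor gene, had 4.93 and 6.55 against 7.24 and 8.59 (0.55, SE 0.22, limma adjusted p = 1.00). Neither passed the threshold. Stat5b was called in the replicate 2 libraries, Ifngr2 and Tnfrsf1a in all but aged replicate 1 and Irf7 in aged replicate 2 alone. Of its 120 regions, 6 (5.0%) were young-only and 3 (2.50%) aged-only, beside 3.76% and 0.870% of all regions. The aged-only ones included regions near Ifngr2 and Il1r1.

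In the HSC ageing marker list, Clu is a gene whose expression marks aged stem cells. It had 17.3 and 19.9 in young and 11.0 and 15.8 in aged MPP3 libraries, which do not overlap (-0.36, SE 0.21). This was the lowest log2 difference among the list's TSS regions called in all 4 libraries. Their median was -0.19 and their highest value 0.07. Selp was called in young replicate 1 (5.02) and aged replicate 2 (6.34). Aldh1a1 was called in all but young replicate 2 and Itgb3 in young replicate 2 alone. The calls at these varying TSS regions did not separate by age. Of the 41 regions nearest to its genes, 2 (4.88%) were young-only, near Cd38 and Itgb3, and 0 aged-only, beside 3.76% and 0.870% of all regions. Vwf had no TSS region. The cell cycle list had 10 of 15 TSS regions in all 4 libraries (median log2 difference 0.00), beside 8411 of 10952 promoter regions. Of its 90 regions, 3 (3.33%) were young-only and 0 aged-only, beside 3.76% and 0.870% of all regions. The megakaryocyte and erythroid list had 2 young-only regions, 1 of them near Car2, and 1 aged-only region, near Zfpm1, of 34 (5.88% and 2.94%, beside 3.76% and 0.870% of all regions). No region nearest to a gene of the 10 lists passed the limma threshold.

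Regions of each lineage were taken from the other fractions alone: the HSC class was called in at least 6 of 8 HSC libraries and in no GMP, MEP or CLP library, and the GMP, MEP and CLP classes in at least 3 of 4 libraries of that fraction and in none of the others. Of 2708 HSC class regions, young replicates 1 and 2 held 51.2% and 33.6%, and aged replicates 1 and 2 held 24.5% and 28.4%. Both aged libraries lay under both young ones, with means of 26.4% ± 2.74 and 42.4% ± 12.5 (SD, n = 2; two-sided exact permutation p = 0.333), and 195 of these regions were young-only against 15 aged-only, beside 1677 against 388 (a ratio of 4.32) over all MPP3 regions. With an equal number of peaks in each library the difference was -6.07 percentage points, in place of -16.0, and it was -7.18 without young replicate 1 and -24.8 without young replicate 2. The CLP class was at 7.09% and 3.47% in young and 2.27% and 2.55% in aged libraries, which again do not overlap, and its difference was -0.638 with equal peak numbers, in place of -2.87. Without young replicate 1 the CLP difference was -1.06, and without young replicate 2 it was -4.68.

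The GMP class followed the replicate number. Of its 17110 regions, the replicate 1 libraries held 3.33% (young) and 1.96% (aged), and the replicate 2 libraries 9.84% (young) and 7.04% (aged), so the ages overlapped (exact permutation p = 0.667). The replicate 2 libraries also shared more sequence with GMP peaks, with mean Jaccard indices of 0.456 and 0.442 against 0.380 and 0.382. Of the regions called in the replicate 2 libraries alone, 93.3% were called in at least 1 GMP library, against 56.9% of those called in the replicate 1 libraries alone, 79.4% of aged-only, 66.1% of young-only, 81.6% of control and 82.8% of all regions. Regions of the class open in all 4 of these fractions were called in 99.8% or more in each MPP3 library. The part of GMP-class accessibility in the other comparisons was not tested.

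**Figure D4:**
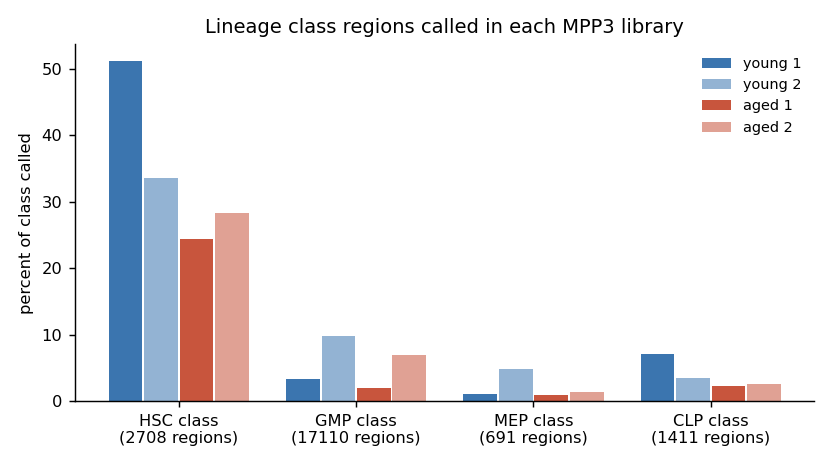
Percent of the regions of each lineage class (x axis) called in each MPP3 library (bars). In the HSC class both young libraries (51.2% and 33.6%) stand above both aged ones, and in the GMP class both replicate 2 libraries (9.84% and 7.04%) stand above both replicate 1 libraries.

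The other 7 fractions give a measurement of the age-only regions in 32 libraries that did not choose them. The share of aged-only and of young-only regions called was taken in each library, less the share of the 4144 control regions, and ages were permuted within fractions. Relative to control regions, aged-only regions were called more often in aged libraries, by 4.61 percentage points (exact permutation p = 2.08e-05, two-sided, 3265920 labellings), with a positive difference in 6 of 7 fractions. The difference was 12.9 points in MPP4, 7.91 in MPP1, 4.91 in MPP2, 3.62 in HSCs, 2.96 in GMPs, 0.559 in CLPs and -0.519 in MEPs. In MPP4 cells 53.5% ± 2.73 of the aged-only regions were called in aged and 42.3% ± 2.19 in young libraries (SD, n = 2), and in MPP1 cells 50.3% ± 8.02 and 38.3% ± 4.19. In MEPs the set was called at 3.09% in both ages. In HSCs it was called at 34% in young and 34.1% in aged libraries and in CLPs at 37.0% and 34%, so the values there come from control regions, which differed by -3.49 and -3.52 points. Leaving out an aged MPP3 library redefined the control regions and chose aged-only regions by 1 aged library. That gave 2745 regions without aged replicate 1 and 1290 without aged replicate 2. Without aged MPP3 replicate 1 the difference was 1.31 points (exact permutation p = 0.100), and without aged replicate 2 it was 1.76 (exact permutation p = 0.00607).

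Relative to control regions, young-only regions were called less often in aged libraries, with a difference of -4.03 points (exact permutation p = 0.000941, two-sided), with a negative difference in 5 of 7 fractions. The difference was -12.1 points in MPP2, -5.59 in MPP4, -4.68 in HSCs, -4.02 in MPP1 and -2.35 in CLPs, and it was 0.303 in GMPs and 0.256 in MEPs. In MPP2 cells the young-only regions were called at 54.6% ± 1.73 in young and 49.9% ± 12 in aged libraries (SD, n = 2), which overlap, while control regions went from 37.0% to 44.5%. In MPP1 cells the young-only regions were called at 60.3% and 60.4%, and control regions differed by 4.08 points. Control regions started from other levels, at 34.5% against 50.8% of young-only regions in young HSCs and 69.3% against 49.8% in young GMPs. Before subtraction, the young-only share changed by -8.17 points in HSCs, -7.25 in MPP4, -5.87 in CLPs, 4.56 in GMPs and 0.775 in MEPs. Of the falls, that in MPP4 alone left the ages without overlap. Without young MPP3 replicate 1 the difference was -0.346 (exact permutation p = 0.610) and without young replicate 2 it was -0.149 (exact permutation p = 0.867). Each of these settings redefined the control regions and chose young-only regions by 1 young library. That gave 5368 regions without young replicate 1 and 6398 without young replicate 2. The call was lost in these other sets, which cannot say how the 1677 regions depend on either young library. The cause was not tested here. On autosomes alone the young-only difference was -3.65 (exact permutation p = 0.00281). Peak names of both aged and neither young MPP3 library hold the word "new", whose meaning is not given, so age and that naming cannot be told apart in MPP3. In the 23 libraries of other fractions without it, which leave 6 fractions and drop MPP4, the fraction with the largest aged-only difference of the 7, the differences were 3.19 for aged-only (exact permutation p = 0.000794) and -3.42 for young-only regions (exact permutation p = 0.00635). If fractions of the same age came from the same pooled mice, these p-values are too small.

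**Figure D5:**
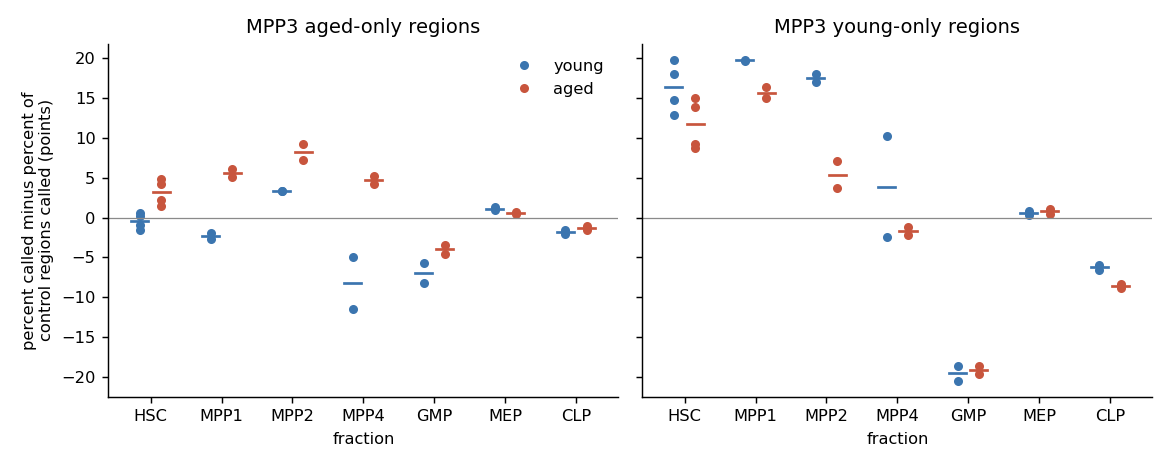
Percent of MPP3 aged-only (left) and young-only (right) regions called in each library of the other fractions, less the percent of control regions (y axis, percentage points; points, libraries; lines, means). In HSC, MPP1, MPP2, MPP4, GMP and CLP libraries the aged points lie above the young points for aged-only regions, and for young-only regions they lie below in MPP1, MPP2 and CLP libraries.

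The 200 shared regions with the highest and the 200 with the lowest limma statistic were followed in the same way, by their log2 fold enrichment centred on all regions called in a fraction's libraries. The higher set had a median log2 difference of 0.66 in the MPP3 libraries that chose it and of 0.066 on average over the other fractions (exact permutation p = 0.00921, positive in 6 of 7 fractions), with 0.16 in MPP4 and 0.15 in MPP2. The lower set had -0.68 in MPP3 and -0.046 elsewhere (exact permutation p = 0.0162, negative in 6 of 7 fractions). The MPP3 medians come from the values that chose the sets, so they are a description and no size is compared. Leaving out single libraries ended both calls, and leaving out an MPP3 library also chose the 200 regions anew. The higher set gave 0.021 to 0.041 (exact permutation p = 0.0544 to 0.491) without any 1 of the 4 MPP3 libraries. The lower set gave -0.019 without young MPP3 replicate 1 (exact permutation p = 0.172) and -0.047 without young MPP3 replicate 2 (exact permutation p = 0.126). It gave -0.046 without young MEP replicate 1, -0.034 without young MEP replicate 2 and -0.046 without aged MPP4 replicate 2 (exact permutation p = 0.0587, 0.0859 and 0.0503). Without aged MEP replicate 2 the higher set gave 0.034 (exact permutation p = 0.301), and without aged MEP replicate 1 the lower set gave -0.023 (exact permutation p = 0.305). Only 13 regions of the higher and 17 of the lower set were called in all MEP libraries.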

How the data were processed

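ATAC-seq with single reads of 60 bp was performed on fragments of 240 to 360 bp. Per the submitters' processing notes and the study's methods, the authors aligned reads to mm10 with Bowtie2, handled them with SAMtools, subsampled each library to an equal number and called peaks per library with MACS2 2.2.6 at a q-value of 0.001. The deposited columns are a fold enrichment (a linear ratio at the summit), a -log10 p-value, a -log10 q-value and an integer score, which was 10 times the -log10 q-value within a tolerance of 1 in 100.0% of entries. No read counts were used here, so precision rests on 2 libraries per age. The deposited score was not used for any comparison.

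Entries with one interval and several summits were counted as 1 peak. Peaks of the 4 MPP3 libraries overlapping by 1 bp were merged, and the highest fold enrichment was kept per region. The background was recovered from fold enrichment and Poisson p-value (SciPy 1.17.1), solved for 99.6% to 100.0% of weak entries. Regions were annotated by their centre with GENCODE mouse release 21 (GRCm38, protein-coding, basic). Calls and ranks were compared by age and by the other pairings of the 4 libraries, shared regions with limma 3.58.1 (quantile normalization, Benjamini-Hochberg), and the other fractions with exact two-sided permutation within fractions (all labellings enumerated with NumPy 2.4.6). Sets named in the text follow a rule: 8 age-only regions per direction by the lower percentile of fold enrichment, 5 shared regions per direction by limma p, and, of the TSS regions of 149 genes in 10 lists, those whose calls vary and a few others, of which Notch1, Jun, Egr1, Fos, Fosb, Maff, Tlr2, Tlr9, Clu, H2-Aa and Cd74 were chosen after their values were seen. The members and lists were chosen with earlier results of these data known. Alternatives that moved a result are given in the closing section. Others were a catalogue of all 36 libraries, every entry counted, median-centred values, the mean over a region's summits and control regions by replicate number only. For the results they were run on, these ended no call and turned no direction. Scripts were tested on simulated data. A few items of the lists are not reported here.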

Additional observations from a re-analysis of the deposited data

Results flagged for a closer look

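The share of young-only MPP3 regions called in other fractions differed between ages in opposite directions in a pair of fractions, and that contrast is given for a closer look. In MEPs, young libraries called 2.33% and 2.74% and aged libraries 3.22% and 3.40% of the 1677 regions, a difference of 0.775 percentage points. In MPP4 cells, young libraries called 52.8% and 55.8% and aged libraries 45.1% and 49%, a difference of -7.25 points. The difference between these fractions was not tested. Control regions moved by 0.519 points in MEPs and by -1.65 points in MPP4 cells. None of the 6 groups of 4 values checked held a sample far from the others.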

How the results depend on the processing

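The other settings changed counts of calls and the calls on ranks. With peaks of a -log10 q of at least 10, aged-only regions numbered 242, the higher-ranked set gave 0.029 in other fractions (exact permutation p = 0.0912) and the class open in all 4 fractions -0.173 points, in place of -0.0651. It gave -0.172 where a peak had to cover 50% of a region. With equal peak numbers, 763 aged-only and 775 young-only regions were counted, the higher-ranked set gave 0.032 (exact permutation p = 0.0758), and the HSC, CLP and all-fraction classes gave -6.07, -0.638 and 0.246 points. With 50 regions, the higher-ranked set gave 0.046 (exact permutation p = 0.156). In libraries without "new", an alternative chosen after seeing the data like that on autosomes, the higher and lower sets gave 0.043 and -0.042 (exact permutation p = 0.172 and 0.0681). The cause was not tested. Leaving out single libraries gave 1034 to 2745 aged-only and 2611 to 6398 young-only regions, 1.31 to 5.09 points for aged-only and -4.93 to -0.149 for young-only regions in other fractions, and 0.021 to 0.076 and -0.066 to -0.019 for the higher and lower sets. Where an MPP3 library was left out, these sets and the control regions were chosen anew. The labels tie same-numbered libraries by the number alone and do not say whether they were handled together. Their deviations across shared regions had a correlation of 0.12. With the replicate number as a block limma called 0 regions, with 1101 at an unadjusted p under 0.05. With 2 libraries per age, no exact permutation of the MPP3 libraries alone could go below p = 0.333.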

Other observations

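Runs of neighbouring regions called in the replicate 2 libraries alone lay mostly where GMP libraries were open. At Asprv1 (chr6:86593226-86639527) 4 such regions were called 8 of 8 times in young and 8 of 8 times in aged GMP libraries and 0 of 16 times at either age in HSCs. At Rbms1 (chr2:60901519-60911054) 3 regions were called 6 of 6 times at each age in GMPs and 0 of 12 times in HSCs. At Hoxa5 (chr6:52204368-52226310) the 3 regions were called 5 of 6 times at each age in GMPs and 8 of 12 and 5 of 12 times in young and aged HSCs. These runs were chosen after their values were seen.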
